A study of Homo sapiens with 8 samples.

Results

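The stress-responsive transcription factor ATF4, 4 of its well-known target genes and the enzymes that make serine and pass its carbon on were followed in a human hepatic cell line, in a line engineered from it, and in the engineered line after bioprinting. The 10 genes were taken by symbol: ATF4, CHAC1, TRIB3, ASNS, PCK2, PHGDH, PSAT1, PSPH, SHMT2 and MTHFD2. Each symbol matched 1 protein-coding row, so the set holds 10 of 19951 protein-coding rows and of 58735 rows in all. All samples derive from HepaRG, a human liver progenitor line able to form hepatocyte-like as well as biliary-like cells. M14A printed cells (2 libraries) are HepaRG with a genotype given as transfected with FoxM1 and HNF4A, bioprinted in the GP bioink and frozen 4 h later. M14A plate cells (3 libraries) have the same genotype and were grown in flasks. HepaRG plate cells (3 libraries) are the wild-type line grown in flasks. Printed constructs were ground in liquid nitrogen and flask cells were digested and centrifuged, so the effect of printing and that of the way of collection cannot be told apart. The labels do not say whether M14A is 1 clone.

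ATF4 is a bZIP factor whose translation rises when kinases such as PERK, GCN2, HRI or PKR phosphorylate eIF2alpha, an arrangement called the integrated stress response. Its protein level is set largely at translation and stability, so its RNA is not a readout of its activity. ATF4 binds composite sites with C/EBP partners and is known to induce genes of amino acid uptake and synthesis, among them those of the serine pathway. In that pathway PHGDH, PSAT1 and PSPH convert a glycolytic intermediate to serine, SHMT2 splits serine to glycine in mitochondria, and MTHFD2 oxidises the folate-bound carbon that is released. In liver the same factor is known to link amino acid shortage, endoplasmic reticulum stress and mitochondrial stress to secreted hormones such as FGF21.

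Start-site sequences show where ATF4-type motifs lie relative to the genes whose RNA moved in different ways. RefSeq windows on GRCh38.p14, from 250 bases before to 50 bases after an annotated start, were at hand for 8 of the 10 genes, in 12 windows of 300 bases, and for neither SHMT2 nor PSPH. Both strands were searched for the C/EBP-ATF response element (CARE, TGATGNAA) and the cyclic AMP response element (CRE, TGACGTCA), and no run of 8 bases can match both. CARE letters occur in 3.62% of 35116 RefSeq promoter windows and CRE letters in 1.85%. Among the 8 genes, CARE letters were present in a window of CHAC1 and in 1 of the ASNS windows, and CRE letters in none. In CHAC1 the match lies on the minus strand, 209 bases upstream of the start, and in ASNS it lies on the plus strand, 68 bases upstream. The windows of these 2 genes and of 2 serine enzymes follow, 5′ to 3′ on the strand of the gene, with the matched letters in capitals. CHAC1 and ASNS carry the match, and PHGDH and PSAT1 are shown beside them as the members with the largest log2 fold change between the flask-grown lines among the 8 that could be tested.
CHAC1, chr15:40953221-40953520, plus strand: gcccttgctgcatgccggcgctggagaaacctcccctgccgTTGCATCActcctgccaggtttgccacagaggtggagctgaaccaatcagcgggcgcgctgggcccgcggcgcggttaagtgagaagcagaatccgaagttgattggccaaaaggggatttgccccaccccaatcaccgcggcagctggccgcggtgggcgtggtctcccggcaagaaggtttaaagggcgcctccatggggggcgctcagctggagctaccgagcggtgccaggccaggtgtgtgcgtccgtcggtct
ASNS, chr7:97872359-97872658, minus strand: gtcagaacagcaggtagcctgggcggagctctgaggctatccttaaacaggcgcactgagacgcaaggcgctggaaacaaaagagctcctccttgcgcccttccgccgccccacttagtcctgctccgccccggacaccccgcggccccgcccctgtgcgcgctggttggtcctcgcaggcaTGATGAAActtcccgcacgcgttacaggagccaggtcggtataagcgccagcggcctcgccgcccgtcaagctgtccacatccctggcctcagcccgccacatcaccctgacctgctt
PHGDH, chr1:119711684-119711983, plus strand: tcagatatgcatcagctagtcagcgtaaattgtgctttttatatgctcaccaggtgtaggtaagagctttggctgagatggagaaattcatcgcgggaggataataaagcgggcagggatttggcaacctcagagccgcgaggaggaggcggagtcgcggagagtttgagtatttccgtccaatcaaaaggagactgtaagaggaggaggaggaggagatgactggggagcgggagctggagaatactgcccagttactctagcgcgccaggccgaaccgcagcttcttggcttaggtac
PSAT1, chr9:78296875-78297174, plus strand: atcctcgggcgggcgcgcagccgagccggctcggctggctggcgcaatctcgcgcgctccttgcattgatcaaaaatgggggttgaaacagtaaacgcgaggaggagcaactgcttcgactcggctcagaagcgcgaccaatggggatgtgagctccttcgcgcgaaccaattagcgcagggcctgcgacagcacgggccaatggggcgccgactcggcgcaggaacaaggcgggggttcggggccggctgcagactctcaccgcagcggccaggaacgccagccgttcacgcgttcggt

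A match is a run of letters and not a shown binding site, and a window without one says only that these letters are not in these 300 bases.

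Expression was measured by RNA sequencing and is given as the authors' FPKM, fragments per kilobase of gene scaled to library size, on a denominator that differs from the reads recovered here. From the values, 15632154 to 19148262 reads per library were recovered. The authors' denominators were 0.818 to 1.205 times these reads, so FPKM totals differed between libraries, from 499995 to 514152 in M14A printed, from 272290 to 350931 in M14A plate and from 254141 to 266419 in HepaRG plate. Reads of mitochondrially encoded genes made up 13.3 and 16.4% in M14A printed, 8.21 to 9.72% in M14A plate and 6.91 to 7.25% in HepaRG plate. HNF4A, named in the genotype label, stood at 17.1 and 13.6 FPKM in M14A printed, at 37.9, 43.1 and 41.7 FPKM in M14A plate and at 5.67, 6.24 and 6.50 FPKM in HepaRG plate, while the mean of FOXM1 was not higher in either M14A group. The summed FPKM of 7 hepatocyte markers was 577 to 603 in M14A printed, 398 to 554 in M14A plate and 27.4 to 30.5 in HepaRG plate. SERPINA1 made up most of this sum in the M14A groups, with means of 459, 334 and 9.55 FPKM in the 3 groups. HNF4A is among the 7, and TTR and TF averaged below 1 FPKM in each group. APOB averaged 26.1, 53.7 and 11.2 FPKM, and its mean, like that of HNF4A, was lower in M14A printed than in M14A plate. The 4 leukocyte markers summed to 9.89 to 11.6, 6.52 to 10.6 and 2.24 to 2.84 FPKM in these groups, the 6 fibroblast and stellate markers to 84.2 to 92.6, 40.5 to 68.8 and 19.4 to 21.1 FPKM, and the 4 endothelial markers to 1.53 to 1.97, 1.56 to 2.18 and 0.885 to 1.12 FPKM with 1 of them at 0 in each group. The leukocyte sum is carried by CD14 and LAPTM5, while PTPRC and CD68 averaged at most 0.00695 and 0.0501 FPKM in a group. The fibroblast sum is carried by DCN, LUM and ACTA2, while COL1A1 averaged 0.270, 0.785 and 1.91 FPKM and PDGFRB 0.0983, 0.0698 and 1.81 FPKM in M14A printed, M14A plate and HepaRG plate. The 6 biliary and progenitor markers summed to 46.9 to 50.2 FPKM in M14A printed, 26.4 to 62.0 FPKM in M14A plate and 116 to 121 FPKM in HepaRG plate. KRT7, a marker of this list, went the other way, with means of 5.74, 2.03 and 0.463 FPKM in these groups. The part of these shifts in the results was not tested. M14A plate library 1 stood apart from the other libraries of its group, with Pearson correlations across genes of 0.957 and 0.948 against 0.988 between those libraries, and results that depend on it are given with and without it.

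ATF4 lies at chr22:39519695-39522685 on GRCh38 (ENSG00000128272, plus strand), and it shares no exon bases with other genes. Of the 50-base stretches in its coding transcripts, 17.9% also occur in transcripts of other genes. Reads counted for its 4 pseudogenes reached at most 0.468% of its own in a library. Its level was 111 and 99.6 FPKM in M14A printed, 63.1, 45.2 and 42.5 FPKM in M14A plate, and 127, 123 and 127 FPKM in HepaRG plate. The 3 groups did not overlap in any pair, and M14A plate was the lowest. The group means were 105 ± 7.96 FPKM in M14A printed (SD, n = 2), 50.3 ± 11.2 FPKM in M14A plate and 126 ± 2.23 FPKM in HepaRG plate (SD, n = 3 each). ATF4 rested on 2104 to 7126 reads per library.

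**Figure D1:**
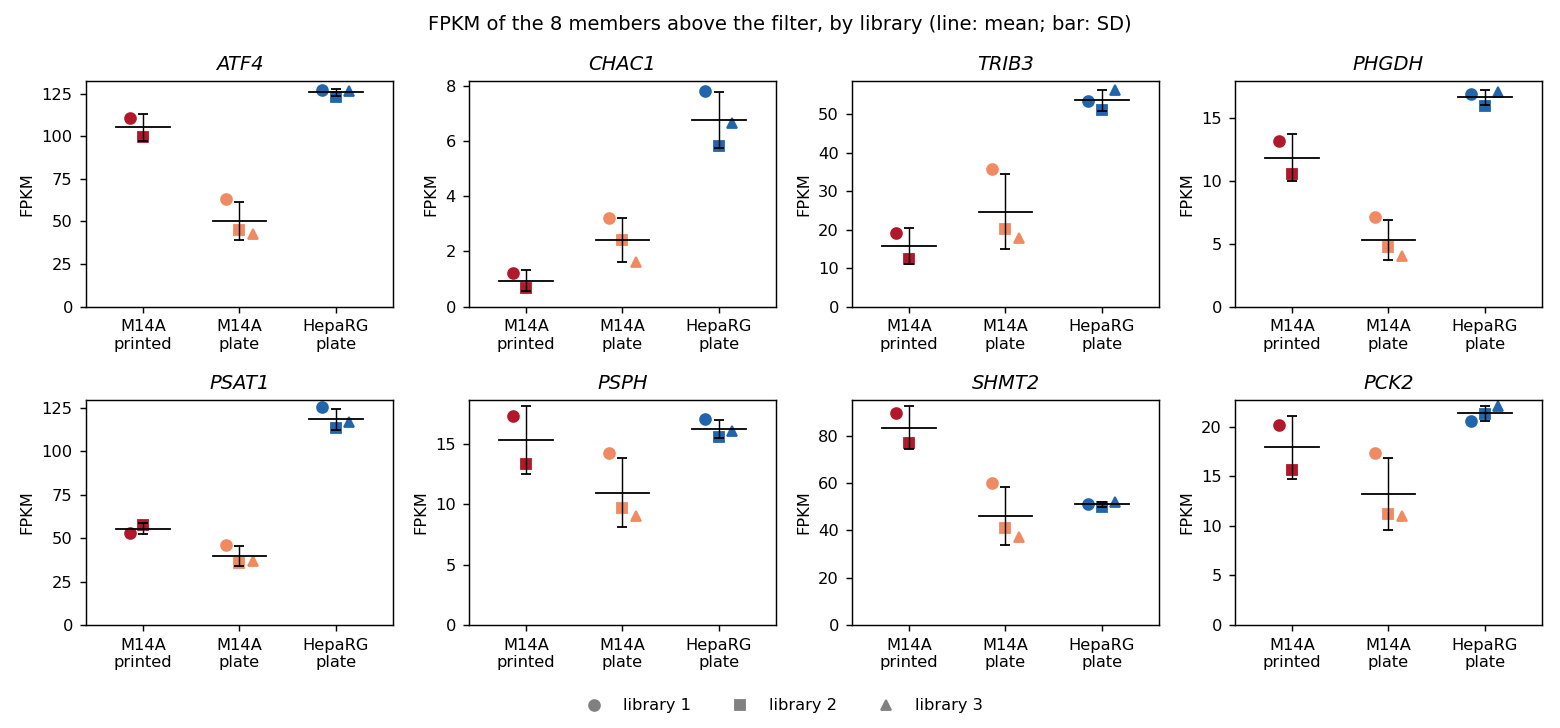
FPKM (y axis, from 0) of the 8 genes that passed the filter on low values, a panel for each gene, with a point for each library, a line at the group mean and bars of 1 SD for M14A printed (2 libraries), M14A plate (3) and HepaRG plate (3). ATF4 is lowest in M14A plate, at 42.5 to 63.1 FPKM, whereas CHAC1 is lowest in M14A printed, at 0.659 and 1.20 FPKM.

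M14A plate was set against HepaRG plate to compare the engineered line with its parent in flask culture. ATF4 and 6 of the 7 other genes tested were lower in M14A plate, and SHMT2 did not pass the test. Genes were tested as log2(FPKM + 1) with limma where at least 2 libraries reached 1 FPKM, and a call needs a p below 0.05 after Benjamini-Hochberg adjustment over the 14349 genes tested. Fold changes on this scale understate the change of low genes, and ASNS and MTHFD2 fell under the filter. Over all genes tested, 30.9% were called in this comparison, 16.1% higher and 14.7% lower, against 0 higher and 7 lower among the 8 members tested. The median log2 fold change was -1.18 for these 8 and -0.04 over all genes tested. The 7 genes called lower also did not overlap between the groups and 0 did so in the higher direction, against 27.4% and 25.7% of all genes tested.

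ATF4 itself was 2.504-fold lower in mean FPKM in M14A plate (log2 fold change -1.33, SE 0.16, limma adjusted p = 3.8e-04). In bulk RNA, fewer cells with a transcript and less of it per cell cannot be told apart. Among its stress-induced targets, CHAC1, a gamma-glutamyl cyclotransferase that degrades glutathione (chr15:40952962-40956519), had 3.22, 2.41 and 1.63 FPKM in M14A plate against 7.82, 5.81 and 6.66 FPKM in HepaRG plate. No M14A plate library reached a HepaRG library, and the log2 fold change was -1.20 (SE 0.20, limma adjusted p = 0.0021). TRIB3, a pseudokinase that restrains AKT and ATF4 signalling (chr20:362835-397559), had 35.8, 20.2 and 17.9 FPKM in M14A plate against 53.5, 51.0 and 56.4 FPKM in HepaRG plate (log2 fold change -1.16, SE 0.26, limma adjusted p = 0.0098). PCK2, the mitochondrial form of phosphoenolpyruvate carboxykinase (chr14:24094053-24110598), had 17.4, 11.2 and 11.01 FPKM in M14A plate against 20.6, 21.3 and 22.1 FPKM in HepaRG plate. Its log2 fold change was -0.68 (SE 0.19, limma adjusted p = 0.024), a call lost without M14A plate library 2 or 3 (-0.59 and -0.57) or any 1 HepaRG library (-0.66 to -0.70), and with no filter (adjusted p = 0.054).

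The 3 enzymes of serine synthesis differed in how far they fell. PHGDH, the dehydrogenase that opens the pathway (chr1:119648411-119744226), had 7.07, 4.72 and 4.05 FPKM in M14A plate against 16.9, 15.9 and 17.0 FPKM in HepaRG plate (log2 fold change -1.52, SE 0.18, limma adjusted p = 3.5e-04). PSAT1, the aminotransferase of the second step (chr9:78297143-78330093), had 46.2, 35.8 and 36.6 FPKM in M14A plate against 125, 113 and 117 FPKM in HepaRG plate (log2 fold change -1.57, SE 0.14, limma adjusted p = 5.7e-05). PSPH, the phosphatase that releases serine (chr7:56011051-56051604), had 14.2, 9.68 and 9.01 FPKM in M14A plate against 17.1, 15.6 and 16.1 FPKM in HepaRG plate. The log2 fold change of PSPH was -0.55 (SE 0.18, limma adjusted p = 0.048), and the difference from the other enzymes was not tested as such. This call did not hold without 1 library in 7 of 8 cases, the exception being M14A plate library 1, with log2 fold changes of -0.44 to -0.58, nor with a pseudocount of 0.1, no filter, median-ratio scaling or only the 2 groups in the fit.

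SHMT2, mitochondrial serine hydroxymethyltransferase (chr12:57229327-57234935), had 60.0, 41.0 and 37.2 FPKM in M14A plate against 51.1, 49.98 and 52.2 FPKM in HepaRG plate. M14A plate library 1 lay above every HepaRG library and libraries 2 and 3 below them. The log2 fold change was -0.18 (SE 0.18, 95% interval -0.59 to 0.24, limma adjusted p = 0.49), and without M14A plate library 1 it was called at -0.38 (adjusted p = 0.012), as it was at equal totals (-0.38), at equal totals without mitochondrial genes (-0.31) and with quantile scaling (-0.40). This library was the highest of its group for all 8 genes tested, at 1.28 to 1.88 times the mean of the other 2, as it was for 52.1% of all genes tested. The direction in the 7 called genes was the same without it, and 8 of the 8 were then called lower.

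**Figure D2:**
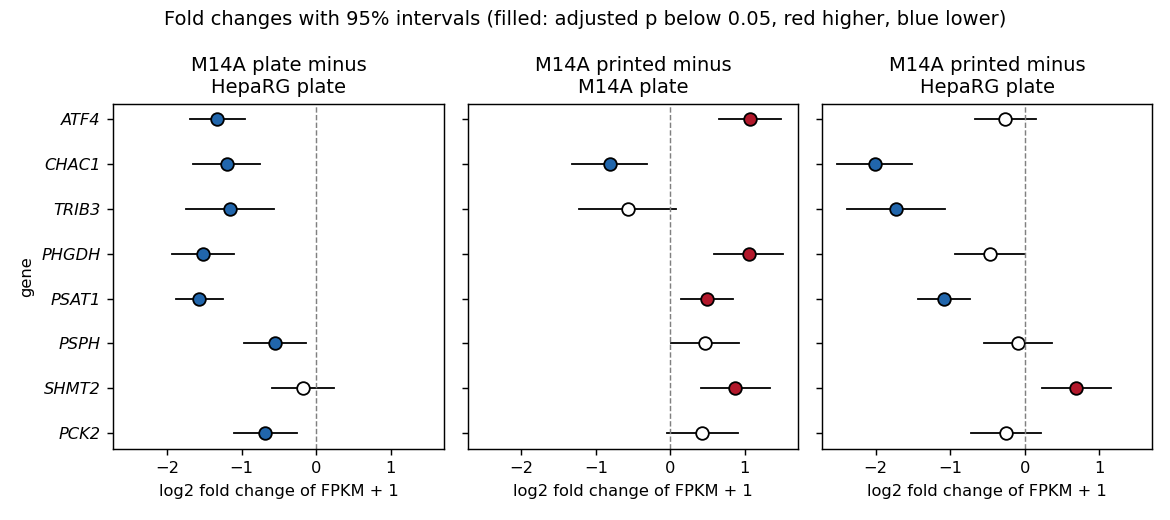
Log2 fold change of FPKM + 1 (x axis) with 95% intervals for the 8 genes tested (y axis) in M14A plate minus HepaRG plate, M14A printed minus M14A plate and M14A printed minus HepaRG plate, with filled symbols for adjusted p below 0.05. In M14A plate minus HepaRG plate all 8 estimates lie below 0, while in M14A printed minus M14A plate CHAC1 and TRIB3 lie below 0 (-0.81 and -0.57) and the other 6 above, of which PSAT1, PSPH and PCK2 turn negative at equal FPKM totals.

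The comparison of M14A printed with M14A plate asks what differs 4 h after printing in the same line. ATF4, PHGDH and SHMT2 were higher in printed cells, CHAC1 was lower, and PSAT1 was higher on the deposited scale but lower (log2 fold change -0.26, adjusted p = 0.039) once libraries were set to equal FPKM totals. Over all genes tested, 33.2% were called, 17.7% higher and 15.5% lower, against 4 higher and 1 lower among the 8 members tested. These 5 were also the members without overlap between the groups, which held in the higher direction for 26.9% and in the lower for 24.4% of all genes tested. The median log2 fold change was 0.475 for the 8 and 0.01 over all genes tested. The scale matters in this comparison, because printed libraries have the larger FPKM totals. Equal totals moved the median of all genes to -0.51, and equal totals without mitochondrial genes to -0.39, and higher genes then made up 6.65% and 13.0% of all calls, against 53.3% on the deposited scale. With equal totals, 483 of the 14928 genes tested were called higher and 6779 lower.

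ATF4 was 2.09-fold higher in mean FPKM in M14A printed than in M14A plate (log2 change 1.07, SE 0.18, limma adjusted p = 0.0033). The call held in all 20 alternative settings, with log2 fold changes of 0.32 to 1.24. PHGDH had 13.1 and 10.5 FPKM in M14A printed against 7.07, 4.72 and 4.05 FPKM in M14A plate, groups that do not overlap. Its log2 fold change was 1.05 (SE 0.20, limma adjusted p = 0.0058), and the call was lost at equal FPKM totals (0.37, adjusted p = 0.054) and without printed library 1 (0.90, adjusted p = 0.052). SHMT2 had 89.8 and 77.0 FPKM in M14A printed against 60.0, 41.0 and 37.2 FPKM in M14A plate (log2 fold change 0.87, SE 0.20, limma adjusted p = 0.012). Both printed libraries lay above every plate library, but the call was lost at equal totals (0.12), at equal totals without mitochondrial genes (0.30) and without printed library 1 (0.76) or with only the 2 groups in the fit (adjusted p = 0.055).

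PSAT1 had 53.1 and 57.8 FPKM in M14A printed against 46.2, 35.8 and 36.6 FPKM in M14A plate (log2 fold change 0.49, SE 0.15, limma adjusted p = 0.040). This call was lost without any 1 library other than M14A plate library 1, with log2 fold changes of 0.42 to 0.55, and with no filter, quantile scaling (0.07) or only the 2 groups in the fit. PSPH had 17.3 and 13.4 FPKM in M14A printed against 14.2, 9.68 and 9.01 FPKM in M14A plate, and PCK2 had 20.2 and 15.6 FPKM against 17.4, 11.2 and 11.01 FPKM. For both genes printed library 2 lay below plate library 1 and above the other plate libraries. Neither passed the test, at log2 fold changes of 0.46 for PSPH (95% interval 0.01 to 0.92, limma adjusted p = 0.11) and 0.43 for PCK2 (95% interval -0.04 to 0.90, limma adjusted p = 0.15), and both turned negative at equal totals (-0.24 and -0.28). Without M14A plate library 1 both were called higher, at 0.65 and 0.63.

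The stress targets CHAC1 and TRIB3 had negative log2 fold changes in this comparison, of which that of CHAC1 passed the test. CHAC1 had 1.20 and 0.659 FPKM in M14A printed against 3.22, 2.41 and 1.63 FPKM in M14A plate, and every printed library lay below every plate library. The log2 fold change was -0.81 (SE 0.22, limma adjusted p = 0.023), and it was negative at the 4 other scalings too, at -0.68 to -1.18, but the call was lost under quantile scaling (-0.68, adjusted p = 0.068), with no filter on low values (adjusted p = 0.074) and with only the 2 groups in the fit (adjusted p = 0.058). CHAC1 rested on 22 to 303 reads per library, and its call was also lost without printed library 2 (-0.61) or M14A plate library 2 (-0.80). TRIB3 had 19.1 and 12.5 FPKM in M14A printed against 35.8, 20.2 and 17.9 FPKM in M14A plate, with printed library 1 between plate libraries 2 and 3. It did not pass on the deposited scale (log2 fold change -0.57, SE 0.29, 95% interval -1.23 to 0.08, limma adjusted p = 0.16) and passed as lower at equal totals (-1.29), equal totals without mitochondrial genes (-1.12) and quantile scaling (-0.68).

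M14A printed and HepaRG plate differ in genotype and in printing, and this comparison shares its libraries with the other 2, so its results are not independent of theirs. ATF4 in M14A printed, at 111 and 99.6 FPKM, lay below the 123 to 127 FPKM of HepaRG plate, and the difference did not pass (log2 fold change -0.26, SE 0.18, 95% interval -0.67 to 0.15, limma adjusted p = 0.25). It passed when M14A plate library 1 was left out of the fit, with the same log2 fold change (adjusted p = 0.015), and with only the 2 groups in the fit (adjusted p = 0.025). Scaling moved it further, to -1.22 at equal totals, -0.97 at equal totals without mitochondrial genes and -1.17 with quantile scaling, each called lower. CHAC1 (log2 fold change -2.02, SE 0.22), TRIB3 (-1.73, SE 0.29) and PSAT1 (-1.08, SE 0.15) were lower in M14A printed, with limma adjusted p of 1.4e-04, 0.0012 and 5.3e-04. SHMT2 was higher in M14A printed (log2 fold change 0.69, SE 0.20, limma adjusted p = 0.018), but was at -0.26 at equal totals, -0.01 without mitochondrial genes and -0.02 with quantile scaling. The SHMT2 call was also lost without printed library 1 (0.58) or HepaRG plate library 1 or 2 (0.69 and 0.68). PHGDH, PSPH and PCK2 did not pass, at -0.47, -0.09 and -0.25 (95% intervals -0.93 to -0.0007, -0.55 to 0.37 and -0.72 to 0.22). At equal totals all 3 were called lower, at -1.36, -0.99 and -1.16, as they were at equal totals without mitochondrial genes, at -1.13, -0.76 and -0.93. Equal totals gave 9427 lower and 1439 higher calls among all 14928 genes tested. PHGDH and PCK2 were also called with quantile scaling (-0.63 and -0.53), and PHGDH at an unaltered -0.47 without M14A plate library 1 (adjusted p = 0.0063) and with only the 2 groups in the fit (adjusted p = 0.0092). Over all genes tested 56.2% were called, 28.1% in each direction, against 1 higher and 3 lower of the 8, whose median was -0.36 beside -0.05 over all genes tested. The groups did not overlap for 1 member that was higher and 6 that were lower, against 38.5% and 41.8% of all genes tested.

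The level of a gene relative to ATF4 in the same library does not change when a library is scaled by 1 factor, but it does under quantile scaling. In M14A printed minus HepaRG plate the log2 fold changes of PHGDH and ATF4 were -0.47 and -0.26 on the deposited scale, and -0.63 and -1.17 under quantile scaling, so their order turned. The ratio is given here on the deposited scale as FPKM per 100 FPKM of ATF4, as means ± SD (n = 2 for M14A printed, n = 3 for the plate groups), as a description. CHAC1 stood at 0.871 ± 0.296 in M14A printed, 4.76 ± 0.814 in M14A plate and 5.37 ± 0.718 in HepaRG plate. TRIB3 stood at 14.9 ± 3.36 in M14A printed, 47.9 ± 7.86 in M14A plate and 42.6 ± 1.64 in HepaRG plate. For both stress targets the plate groups overlapped, and both printed libraries lay below all 6 plate libraries. PHGDH stood at 11.2 ± 0.933 in M14A printed, 10.4 ± 0.854 in M14A plate and 13.2 ± 0.270 in HepaRG plate, with overlap of the M14A groups. Here the 8 libraries spanned only 9.52 to 13.4.

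PSAT1 stood at 52.9 ± 7.13 per 100 FPKM of ATF4 in M14A printed, 79.5 ± 6.43 in M14A plate and 94.0 ± 3.67 in HepaRG plate, with no overlap. PSPH stood at 14.5 ± 1.58 in M14A printed, 21.7 ± 0.714 in M14A plate and 12.9 ± 0.430 in HepaRG plate. PCK2 stood at 17.0 ± 1.77 in M14A printed, 26.1 ± 1.37 in M14A plate and 17.0 ± 0.701 in HepaRG plate. SHMT2 stood at 79.2 ± 2.58 in M14A printed, 91.1 ± 3.83 in M14A plate and 40.6 ± 0.531 in HepaRG plate. PSPH, PCK2 and SHMT2 had their highest ratio to ATF4 in M14A plate, where ATF4 was lowest. By arithmetic this holds for any gene that is lower there by a smaller factor than ATF4. Mean FPKM of these 3 genes was also lowest in M14A plate, at 11.0, 13.2 and 46.0. Within the serine pathway the ratio of PSAT1 to PSPH in FPKM was 3.06 and 4.33 in M14A printed, 3.25 to 4.06 in M14A plate and 7.25 to 7.33 in HepaRG plate. The ratio of PHGDH to PSPH was 0.757 and 0.785 in M14A printed, 0.449 to 0.498 in M14A plate and 0.989 to 1.06 in HepaRG plate, 3 ranges that do not overlap.

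**Figure D3:**
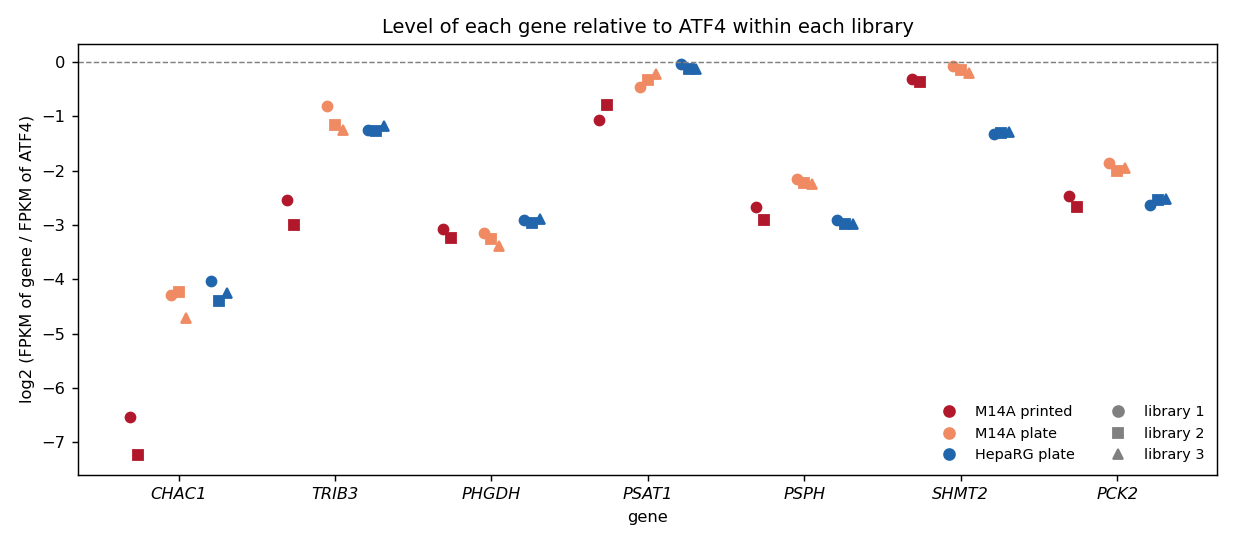
Log2 ratio of the FPKM of each of 7 genes to that of ATF4 in the same library (y axis) by gene (x axis), with a point for each library of M14A printed, M14A plate and HepaRG plate. CHAC1 and TRIB3 have both printed points below all 6 plate points, SHMT2 has all 3 HepaRG points lowest, and the PHGDH points lie close together, between 9.52 and 13.4 FPKM per 100 FPKM of ATF4.

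The 2 genes under the filter cannot be compared in the same way. ASNS, asparagine synthetase (chr7:97852118-97872542), stood at 0.168 and 0.0554 FPKM in M14A printed, 0.0702, 0.115 and 0.137 FPKM in M14A plate, and 0.489, 0.654 and 0.568 FPKM in HepaRG plate, from 4 to 67 reads per library. Of its coding bases, 96.1% are also exon bases of AC079781.5, an annotated gene on the same strand, so reads that fall there may be left out in gene counting and the level of ASNS is uncertain. The M14A groups overlap and every HepaRG library is above them. No test is given for this difference. Of the 50-base stretches in the coding transcripts of ASNS, 64.4% also occur in transcripts of other genes. In M14A printed library 2 its pseudogene ASNSP1 had 11 reads and ASNS itself 4. MTHFD2, the mitochondrial methylenetetrahydrofolate dehydrogenase (chr2:74198562-74217565), stood at 0.338 and 0.329 FPKM in M14A printed, 0.141, 0.315 and 0.407 FPKM in M14A plate, and 0.218, 0.241 and 0.265 FPKM in HepaRG plate, from 11 to 39 reads. Of the 50-base stretches in its coding transcripts, 34.6% also occur in transcripts of other genes, and the antisense gene SLC4A5 covers 27.2% of its exon bases, so its level is uncertain too. Its difference between M14A plate and HepaRG plate was not detectable at this depth (log2 fold change 0.05 with no filter, SE 0.09).

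Relatives of the 10 genes were compared to see whether a family moved together. Of 9 relatives tested, 0 were higher and 3 lower in flask-grown M14A than in HepaRG plate (median -0.20). All genes tested had shares of 16.1% higher and 14.7% lower there. None of the 9 was called in M14A printed minus M14A plate, where the shares were 17.7% and 15.5%. TRIB2, a pseudokinase related to TRIB3, had 0.130 and 0.269 FPKM in M14A printed, 0.232, 0.324 and 0.332 FPKM in M14A plate, and 2.85, 3.31 and 2.13 FPKM in HepaRG plate. TRIB2, 1 of the 3, passed the filter only through HepaRG plate, so its difference is given as values, and TRIB1 was not called (0.32 on the log2 scale, SE 0.22, adjusted p = 0.31). CHAC2, which also acts on glutathione, averaged 5.24 ± 0.376 FPKM in M14A printed, 3.61 ± 0.576 FPKM in M14A plate and 7.50 ± 1.18 FPKM in HepaRG plate, lower in M14A plate at -0.88 (SE 0.15, adjusted p = 0.0021). CREB1, a bZIP factor, was the third lower gene (-0.75, SE 0.20, adjusted p = 0.023), a call lost without any 1 HepaRG library.

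SHMT1, the cytosolic counterpart of SHMT2, averaged 8.88 ± 0.119 FPKM in M14A printed, 8.09 ± 1.72 FPKM in M14A plate and 8.74 ± 0.123 FPKM in HepaRG plate and did not pass in any comparison. The ratio of SHMT2 to SHMT1 in FPKM was 8.75 and 10.01 in M14A printed, 5.38 to 5.96 in M14A plate and 5.73 to 6.05 in HepaRG plate, with both printed libraries above all plate libraries. A single factor per library leaves these ratios as they are, but quantile scaling does not, and under it SHMT2 and SHMT1 had log2 fold changes of -0.02 and 0.0053 in M14A printed minus HepaRG plate. PCK1, the cytosolic counterpart of PCK2 and an enzyme of gluconeogenesis, had 19 and 36 reads in M14A printed (0.208 and 0.326 FPKM), 2, 6 and 4 reads in M14A plate, and 3, 0 and 0 reads in HepaRG plate, and was not tested. The folate enzymes MTHFD1 (13.7 ± 0.971 FPKM in M14A printed, 14.1 ± 3.13 in M14A plate, 14.8 ± 0.603 in HepaRG plate) and MTHFD1L (18.0 ± 0.612, 13.7 ± 4.16 and 13.9 ± 0.365 FPKM) did not pass in any comparison, nor did ATF5 and ASNSD1. MTHFD2L, at 0.904 ± 0.0347, 0.587 ± 0.0875 and 0.727 ± 0.152 FPKM in these groups, was not tested.

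Other genes known to respond to ATF4 were called in both directions. Of 22 tested, 4 were higher and 10 lower in flask-grown M14A than in HepaRG plate (median log2 fold change -0.51). All genes tested had shares of 16.1% higher and 14.7% lower there. Of the 22, 5 were higher and 2 lower in M14A printed than in M14A plate (median 0.23), or 3 and 7 at equal totals. Shares of all genes tested were 17.7% higher and 15.5% lower, or counts of 483 and 6779 of 14928 at equal totals. Apart from the 10 lower, the counts on the deposited scale lie near these shares. GDF15, a stress hormone that is also induced by p53, averaged 388 ± 189 FPKM in M14A plate and 35.1 ± 3.16 FPKM in HepaRG plate (log2 fold change 3.33, SE 0.30, limma adjusted p = 6.5e-05). FGF21, a liver hormone of fasting and stress, had 1 read in each M14A plate library and 137 to 148 reads in the HepaRG libraries. INHBE, a hepatokine of the activin family, averaged 0.768 ± 0.127 FPKM in M14A plate and 9.30 ± 0.402 FPKM in HepaRG plate. FGF21 and INHBE passed the filter only through HepaRG plate, and no test is given for them. ADM2, at 0.073 ± 0.040 FPKM in M14A plate and 2.73 ± 0.210 FPKM in HepaRG plate, passed in the same way. Such genes could only be called lower in M14A plate, and at least FGF21 and INHBE are among the 10. In M14A printed against M14A plate, NUPR1, a stress-induced chromatin protein, averaged 54.1 ± 5.06 and 20.5 ± 5.62 FPKM, higher by 1.39 (SE 0.21, adjusted p = 0.0021), and EIF4EBP1, an inhibitor of cap-dependent translation, averaged 314 ± 48.6 and 119 ± 15.7 FPKM. DDIT4, an inhibitor of mTORC1, was lower at 15.1 ± 1.03 FPKM in M14A printed against 47.1 ± 19.5 FPKM in M14A plate (-1.50, SE 0.27, adjusted p = 0.0043), and other genes cover 41.2% of its exon bases.

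Amino acid transporters and cytosolic tRNA synthetases, both known ATF4 target groups, were lower in flask-grown M14A than in HepaRG plate wherever a member was called. Of all genes tested, 16.1% were called higher and 14.7% lower in this comparison. Of 9 transporters tested 0 were higher and 6 lower (median -0.90), led by SLC7A11, the cystine transporter, at 1.88 ± 0.880 FPKM in M14A plate and 28.3 ± 1.70 FPKM in HepaRG plate (-3.40, SE 0.23, limma adjusted p = 1.2e-05). SLC7A5, a carrier of large neutral amino acids, averaged 2.65 ± 1.02 FPKM in M14A plate and 29.2 ± 0.459 FPKM in HepaRG plate (-3.09, SE 0.19). SLC6A9, a glycine carrier, had 0.267, 0.278 and 0.158 FPKM in M14A plate and 2.74, 2.43 and 3.17 FPKM in HepaRG plate, through which alone it passed the filter. SLC1A4 averaged 0.539 ± 0.284 FPKM in M14A plate and 3.39 ± 0.142 FPKM in HepaRG plate and passed in the same way. Such genes could only be called lower in M14A plate, and at least SLC6A9 is among the 6. Of 12 synthetases 0 were higher and 9 lower (median -0.75), with EPRS, NARS and GARS at -1.21, -0.93 and -0.89 (SE 0.29, 0.21 and 0.14). In M14A printed minus M14A plate the transporters counted 0 higher and 1 lower, the arginine carrier SLC7A1 (-0.93, SE 0.18, adjusted p = 0.0056), and the synthetases 0 and 0. Beside these counts, 17.7% of all genes tested were higher and 15.5% lower. At equal totals 5 transporters and 6 synthetases were lower, and without M14A plate library 1 there were 1 higher and 5 lower transporters and 7 higher synthetases. Of all 14928 genes tested at equal totals, 6779 were lower and 483 higher. Without M14A plate library 1, 4040 of 14219 genes were higher and 3849 lower.

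**Figure D4:**
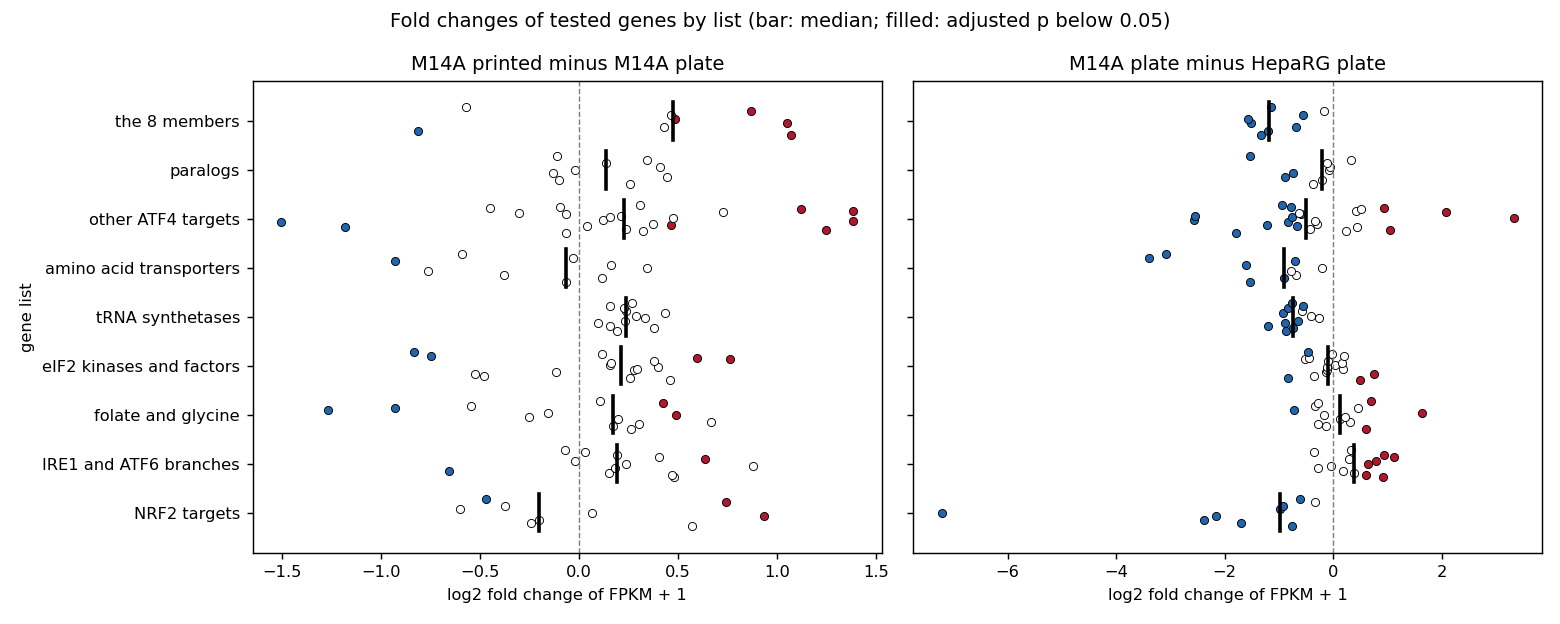
Log2 fold change of FPKM + 1 (x axis) of each tested gene in the 10-gene set and the 8 other lists (y axis) for M14A printed minus M14A plate and M14A plate minus HepaRG plate, with a bar at the list median and filled symbols for adjusted p below 0.05. In M14A plate minus HepaRG plate the 8 tested members, 12 synthetases, 9 transporters and 9 NRF2 targets have medians of -1.18, -0.75, -0.90 and -0.98, beside -0.04 over all genes tested. The relatives, other ATF4 targets, eIF2, folate and glycine, and IRE1 and ATF6 lists have medians of -0.20, -0.51, -0.10, 0.12 and 0.38. SLC6A9, SLC1A4, NQO1, TRIB2, FGF21, INHBE and ADM2 passed the filter only through HepaRG plate, so their points could only lie below 0 in that panel. GLDC passed only through the M14A groups and could only lie above 0.

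Genes upstream of ATF4 and of neighbouring stress branches gave mixed counts. Of 16 genes of the eIF2alpha kinases, eIF2 and its phosphatase, 2 were higher and 2 lower in flask-grown M14A than in HepaRG plate (median -0.10). These counts lie near the shares of all genes tested, 16.1% higher and 14.7% lower. The heme-regulated kinase EIF2AK1 averaged 30.4 ± 3.96 FPKM in M14A plate and 55.0 ± 1.08 FPKM in HepaRG plate (-0.84, SE 0.13, limma adjusted p = 0.0018). EIF2AK3, which encodes PERK, averaged 4.92 ± 1.58 and 2.43 ± 0.0761 FPKM in these groups (0.75, SE 0.20, adjusted p = 0.023), a call lost without M14A plate library 2 or 3 or any 1 HepaRG library (0.60 to 0.99 with each library left out) and at equal totals (0.62). PPP1R15B, a targeting subunit of the eIF2alpha phosphatase, was lower in M14A printed, at 7.71 ± 0.511 FPKM, than in M14A plate, at 14.5 ± 0.215 FPKM (-0.83, SE 0.12, adjusted p = 0.0018), whereas PPP1R15A, the stress-induced targeting subunit, which was added after its values were seen, averaged 54.6 ± 8.59 FPKM in M14A printed and 25.0 ± 7.39 FPKM in M14A plate (1.12, SE 0.22, adjusted p = 0.0061), a call lost at equal totals (0.38) and without printed library 1 (0.96 to 1.34 with each library left out). The eIF2 list had 2 higher and 2 lower genes in this comparison, or 0 and 10 at equal totals and 9 and 4 without M14A plate library 1. All genes tested had shares of 17.7% higher and 15.5% lower here. They counted 483 higher and 6779 lower of 14928 at equal totals, and 4040 and 3849 of 14219 without M14A plate library 1. Of 13 targets of the IRE1 and ATF6 branches, 6 were higher and 0 lower in flask-grown M14A than in HepaRG plate (median 0.38), with PDIA4, a protein disulfide isomerase, at 104 ± 13.7 and 47.5 ± 0.935 FPKM (1.11, SE 0.13, adjusted p = 3.0e-04). In M14A printed minus M14A plate 1 of them was higher and 1 lower, or 0 and 8 at equal totals. Of 9 NRF2 targets, genes of antioxidant defence, 0 were higher and 8 lower in flask-grown M14A than in HepaRG plate (median -0.98), and 2 were higher and 1 lower in M14A printed than in M14A plate, or 0 and 5 at equal totals. NQO1, among the 8, averaged 0.274 ± 0.172 FPKM in M14A plate and 187 ± 3.16 FPKM in HepaRG plate. It passed the filter only through HepaRG plate and could only be called lower.

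Enzymes that use the carbon of serine and glycine were called in both directions. Of 13 folate and glycine enzymes, 3 were higher and 1 lower in flask-grown M14A than in HepaRG plate (median 0.12). These few calls lie near the shares of all genes tested, 16.1% higher and 14.7% lower. GLDC, the decarboxylase of the glycine cleavage system, averaged 3.46 ± 0.105 FPKM in M14A plate and 0.430 ± 0.0226 FPKM in HepaRG plate, a gene that passed the filter only through the M14A groups. MAT2A, which makes S-adenosylmethionine, averaged 19.5 ± 0.253 FPKM in M14A printed, 48.4 ± 0.445 FPKM in M14A plate and 80.2 ± 2.29 FPKM in HepaRG plate, with no overlap. It was lower in flask-grown M14A than in HepaRG plate (-0.71, SE 0.11, adjusted p = 0.0013) and lower in M14A printed than in M14A plate (-1.27, SE 0.12, adjusted p = 5.7e-04), at every scaling tried. In M14A printed minus M14A plate 2 of the 13 were higher and 2 lower, or 0 and 7 at equal totals. All genes tested had shares of 17.7% higher and 15.5% lower there, or counts of 483 and 6779 of 14928 at equal totals.

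To show which other genes had an expression pattern like that of ATF4, profiles of log2(FPKM + 1) were centred over the 8 libraries and compared by their root mean square difference among 6311 protein-coding genes with a mean of at least 5 FPKM. Of the members PHGDH was closest, at 0.107, with 1 gene outside the set nearer. PCK2, PSAT1 and PSPH followed at 0.319, 0.335 and 0.354, with 51, 62 and 83 such genes nearer, and SHMT2, TRIB3 and CHAC1 at 0.526, 0.696 and 0.801, with 685, 3138 and 4481 nearer. The 6311 genes do not include the members. CHAC1, at group means of 0.929, 2.42 and 6.76 FPKM, averaged less than 5 FPKM over the 8 libraries, so its place is not on the same footing. The 5 nearest outside the set were SPANXB1 at 0.0742, TMSB4X at 0.159, SMDT1 at 0.161, IMPA2 at 0.164 and EIF3L at 0.177. SPANXB1, a gene of a family of near-identical copies whose level is therefore uncertain, averaged 1475 FPKM in M14A printed, 709 FPKM in M14A plate and 1672 FPKM in HepaRG plate. TMSB4X, which encodes thymosin beta-4 and has similar copies, averaged 179.7, 89.3 and 274.9 FPKM, and the other 3 likewise had their lowest mean in M14A plate and their highest in HepaRG plate. The measure is a description of 8 libraries in 3 groups, which share scaling and library effects, and carries no test.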

How the data were processed

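RNA was collected in TRIzol and libraries were made with a NEBNext Ultra RNA kit, per the labels' protocols. The submitters' processing notes name HISAT2 2.0.5 and featureCounts 1.5.0-p3. Their options and the strand setting were not stated in the sources used. The values are FPKM as deposited by the authors. The build is not stated, but all 58735 gene coordinates equal those of GENCODE 29 on GRCh38. FPKM times gene length gave whole reads within a tolerance of 0.01. Every column was assigned by its name, leaving 0 columns without a sample. Groups follow the sample titles.

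Genes that reached 1 FPKM in 2 or more libraries entered the test as log2(FPKM + 1), with a pseudocount of 1, by limma 3.58.1 in R 4.3.3 (eBayes with trend, two-sided, all 8 libraries in 1 fit of 3 groups). All groups share 1 estimate of the spread, since 2 printed libraries say little of theirs. The labels do not say whether replicates are separate cultures, so p-values reflect the spread among these samples alone, and that spread may be technical. Confidence intervals are at 95%. The comparisons share groups and are not set against each other. The members and lists were chosen with earlier results of these data known. Named genes are the members, their relatives, FOXM1 and HNF4A, up to 3 called genes with the largest change of each list and comparison (not all are printed), and the 5 nearest to ATF4. Alternatives were a pseudocount of 0.1, no filter and a filter at 5 FPKM, 4 scalings, a fit limited to the compared groups, eBayes without trend, voom on recovered reads, a replicate block, a threshold of 0.01, and omission of each library in turn. The fit was tested on simulated reads with the same dispersion for all genes, no library standing apart and no set difference in FPKM totals. Only M14A plate minus HepaRG plate and M14A printed minus M14A plate were simulated. How the fit behaves with such a library or such totals was therefore not tested. Tables were made in Python 3.11.15 with pandas 2.3.3. Promoter windows are RefSeq's.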

Additional observations from a re-analysis of the deposited data

How the results depend on the processing

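Settings other than the omission of a library moved the following counts of called members by more than 1.5 times. For M14A printed minus M14A plate, the 4 higher genes became 1 at equal FPKM totals, 2 at equal totals without mitochondrial genes, 2 with only the groups compared in the fit and 2 at a threshold of 0.01, and the 1 lower gene became 3, 2, 0 and 0 under these settings and 0 with no filter. For M14A printed minus HepaRG plate, the 1 higher gene became 0 at both equal-total settings, with quantile scaling and at a threshold of 0.01, and the 3 lower genes became 7 at both equal-total settings, 6 with quantile scaling and 5 with only the groups compared. For M14A plate minus HepaRG plate the count stayed at 0 higher and 5 to 8 lower throughout. Of all 14928 genes tested at equal totals, 483 were higher and 6779 lower in M14A printed minus M14A plate. In M14A printed minus HepaRG plate these numbers were 1439 and 9427. With each library left out in turn, M14A printed minus M14A plate had 1 to 6 higher and 0 to 1 lower genes (1 higher without printed library 1, 6 without M14A plate library 1, 0 lower without printed library 2 or M14A plate library 2), M14A printed minus HepaRG plate had 0 to 1 higher and 3 to 5 lower genes (0 higher without printed library 1 or HepaRG plate library 1 or 2, 5 lower without M14A plate library 1), and M14A plate minus HepaRG plate had 0 higher and 5 to 8 lower genes. In M14A printed minus M14A plate the log2 fold change of PSAT1 turned to -0.26, that of PSPH to -0.24 and that of PCK2 to -0.28 at equal totals, and to -0.084, -0.0744 and -0.11 without mitochondrial genes. In M14A printed minus HepaRG plate that of SHMT2 turned to -0.26, -0.0105 and, with quantile scaling, -0.0169, and that of PSPH to 0.0899 without printed library 2. Equal totals multiply all FPKM of a library by 1 factor, which shifts low genes less on the log2(FPKM + 1) scale, and moved the median of all genes to -0.22 in M14A plate minus HepaRG plate, -0.51 in M14A printed minus M14A plate and -0.77 in M14A printed minus HepaRG plate. Of all genes tested, 4429 were called in M14A plate minus HepaRG plate (2341 with a filter at 5 FPKM, 2544 at a threshold of 0.01 and 2788, 2851 and 2865 without HepaRG plate library 1, 2 and 3), 4770 in M14A printed minus M14A plate (7262 at equal totals, 2416 with only the groups compared, 2368 at a threshold of 0.01, 2495 and 2751 without printed library 1 and 2, 7889 without M14A plate library 1), and 8065 in M14A printed minus HepaRG plate (4661 with a filter at 5 FPKM). The cause of these shifts was not tested.

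Replicate numbers are shared between groups. Deviations from the group means correlated at 0.487 and 0.365 for same-numbered printed and M14A plate libraries, at -0.0708, 0.0808 and -0.155 for HepaRG and M14A plate libraries and at -0.0432 and 0.0744 for HepaRG and printed libraries. M14A plate library 3 and printed library 2, with unlike numbers, reached 0.433. The deviations of 2 printed libraries mirror each other by construction, so this check cannot tell pairing from M14A plate library 1 standing apart. The numbers were not taken to pair the libraries. With the replicate number as a block, 4419, 4380 and 7680 genes were called in the 3 comparisons in the order above, members counted 0 higher and 7 lower, 3 and 1, and 1 and 4, PSAT1 in M14A printed minus M14A plate was not called (0.46, adjusted p = 0.091), and PHGDH in M14A printed minus HepaRG plate was (-0.53, adjusted p = 0.047). Depth limits CHAC1, ASNS and MTHFD2 most, and ASNS and MTHFD2 could not be tested behind the filter.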

Other observations

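The other gene lists were also counted between M14A printed and HepaRG plate, where 28.1% of all genes tested were higher and 28.1% lower. Of 9 amino acid transporters, 0 were higher and 8 lower (median log2 fold change -1.55, beside -0.05 over all genes tested), as in the carrier SLC7A5, which averaged 1.37 ± 0.266 FPKM in M14A printed and 29.2 ± 0.459 FPKM in HepaRG plate (SD, n = 2 and 3). Of 9 NRF2 targets 0 were higher and 7 lower (median -1.31), and of 12 cytosolic tRNA synthetases 0 were higher and 4 lower (median -0.455). Of 22 other ATF4 targets 7 were higher and 11 lower, with NDRG1, a stress-response gene, at 38.8 ± 0.970 FPKM in M14A printed and 4.69 ± 0.184 FPKM in HepaRG plate (log2 fold change 2.81, SE 0.40, limma adjusted p = 5.2e-04). Of 13 targets of the IRE1 and ATF6 branches 7 were higher and 1 lower (median 0.83), with PDIA4 at 138 ± 5.68 FPKM in M14A printed and 47.5 ± 0.935 FPKM in HepaRG plate (log2 fold change 1.52, or 0.56 at equal FPKM totals). The folate and glycine list had 4 higher and 3 lower of 13, the eIF2 list 1 and 4 of 16, and the relatives of the members 1 and 3 of 9. In these lists SLC6A9, SLC1A4, NQO1, FGF21, INHBE, ADM2 and TRIB2 passed the filter only through HepaRG plate, so they could only be called lower. GLDC passed only through the M14A groups and could only be called higher. At equal FPKM totals the counts were 0 higher and 9 lower for the transporters, 0 and 9 for the NRF2 targets, 0 and 11 for the synthetases, 5 and 16 for the other ATF4 targets, 2 and 4 for the IRE1 and ATF6 branches, 1 and 8 for the folate and glycine list, 0 and 11 for the eIF2 list and 0 and 7 for the relatives. These counts stand beside 1439 higher and 9427 lower of all 14928 genes tested at that setting.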
